A study of Saccharomyces cerevisiae with 3 samples.

Results

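The 10 genes described here encode enzymes and a regulator of branched-chain amino acid synthesis in the budding yeast Saccharomyces cerevisiae. They were taken by name: LEU1, LEU2, LEU3, LEU4, ILV1, ILV2, ILV3, ILV5, ILV6 and BAT1. All 10 matched a symbol in the annotation of the arrays, among 5203 named genes, and 9 of them had a value on all 3 arrays. The treated cultures were strain S288C in rich glucose medium (YPD) at 25 °C, exposed during exponential growth to 5 mM 2-aminobenzimidazole for 2 h. The control cultures were the same strain in the same medium, grown for a further 2 h without the compound. Each of 3 two-colour microarrays set Cy5-labelled polyadenylated RNA of a treated culture against Cy3-labelled RNA of a control culture, and the series describes the hybridisations as independent biological samples. The title of array 1 carries a letter H that the labels do not explain.

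Valine, leucine and isoleucine share much of 1 route, most of which runs in mitochondria. Threonine deaminase (Ilv1) opens the isoleucine branch, and acetolactate synthase, a reductoisomerase (Ilv5), a dehydratase (Ilv3) and a transaminase (Bat1) then serve isoleucine and valine alike. Leucine branches off the valine route through isopropylmalate synthase (Leu4), isopropylmalate isomerase (Leu1) and isopropylmalate dehydrogenase (Leu2), the last pair working in the cytosol. The activator Leu3 responds to isopropylmalate, the product of Leu4, and the activator Gcn4 raises amino acid synthesis genes of many pathways when amino acids are scarce. YPD supplies amino acids in its peptone and yeast extract.

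Values below are log2 ratios of treated over control on each array, so 1 stands for a 2-fold higher signal in treated cells and -1 for a 2-fold lower one. The table states neither the base nor the direction of its ratios. Base 2 is the customary reading, and treated over control is the likely direction, since the treated RNA is the first channel in the labels. A natural log would make every fold larger, and the opposite direction would turn every sign. With 0 arrays in the exchanged dye orientation, the treatment and any gene-specific dye effect cannot be told apart. Ratios were present for 3062, 5044 and 5158 named genes on arrays 1, 2 and 3, and signal intensities were not used here. The arrays differed in what they showed for these genes, as array 2 gave the lowest of the 3 values for all 9 genes measured on every array, against 37.6% of the 3039 genes tested. Results are therefore given by array, and with and without array 2.

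LEU2, the last enzyme gene of the leucine branch before transamination, was the only one of the 9 tested genes to pass the test over all 3 arrays, and it rose 4.13-fold (mean log2 ratio 2.05 ± 0.63, SD, n = 3). Of all genes tested, 8.36% were called higher and 9.64% lower (limma, Benjamini-Hochberg adjusted p below 0.05), so 1 of 9 is a share near that background. On arrays 1 and 3 the picture was wider: 8 of 9 genes were at least 2-fold higher on array 1, where 14.2% of named genes were, and 6 of 10 on array 3, where 13% were. Of these genes 0 were at least 2-fold lower on array 1 or array 3, where 15% and 13.7% of named genes were. On array 2, 5 of 10 genes were at least 2-fold lower, where 11.4% of named genes were, and only LEU2 was at least 2-fold higher, where 10.9% were. The median of the 9 genes was 1.52 on array 1, -1.29 on array 2 and 2.14 on array 3, while the medians of all genes tested were -0.06, -0.04 and -0.03. The 9 mean ratios had a median of 0.57, against -0.04 for all genes tested, and 8 of the 9 means were above 0.

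**Figure D1:**
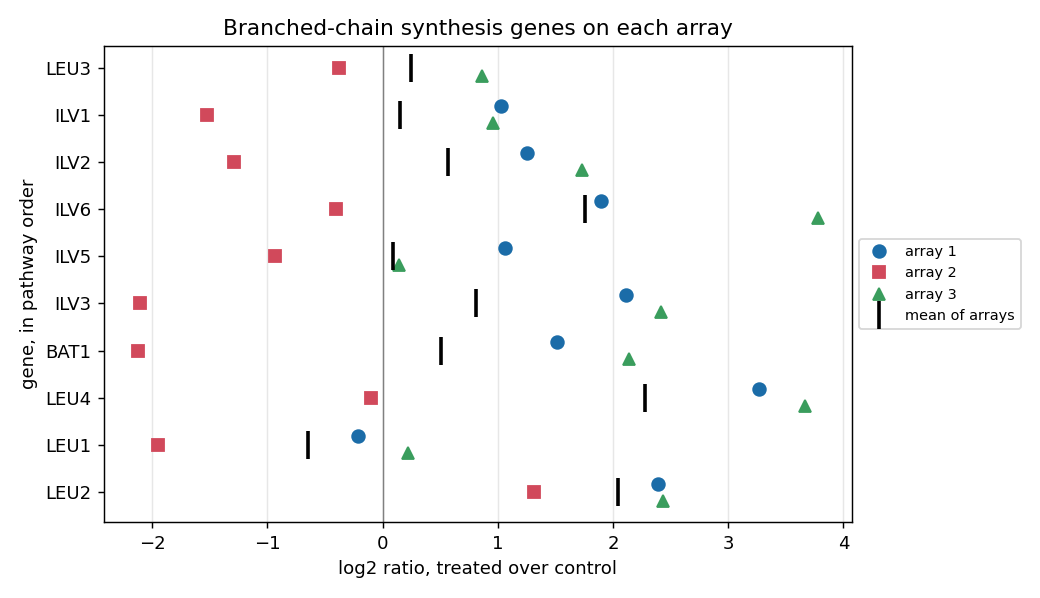
Log2 ratio of treated over control (horizontal axis) for each of the 10 genes in pathway order (vertical axis), with a symbol for each array and a bar for the mean of the arrays with a value. Array 2 lies left of arrays 1 and 3 in every gene measured on all 3, and LEU2 is the only gene to the right of 1 on each array.

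LEU3 encodes the zinc cluster activator of the leucine and valine genes. It had -0.38 on array 2 and 0.87 on array 3, with no value on array 1. It was therefore left out of the test over 3 arrays. In a fit of all genes with at least 2 arrays, where 5.39% of genes were called higher and 5.83% lower, its mean of 0.24 ± 0.88 (SD, n = 2) had an adjusted p of 0.738 (limma). Its arrays lay on opposite sides of 0, as for most of the enzyme genes.

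ILV1 encodes threonine deaminase, the first enzyme particular to isoleucine and the one that isoleucine inhibits. Its log2 ratios were 1.03, -1.52 and 0.96 on arrays 1, 2 and 3. Arrays 1 and 3 were almost equal, close to 2-fold higher, and array 2 was 2.52 below their average. The mean was 0.15 ± 1.45 (SD, n = 3), with an adjusted p of 0.855 (limma).

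ILV2 and ILV6 encode the catalytic and the regulatory subunit of acetolactate synthase, the first enzyme shared by the isoleucine and valine routes. ILV2 had 1.25, -1.29 and 1.73 on arrays 1, 2 and 3, with a mean of 0.57 ± 1.62 (adjusted p = 0.497, limma). ILV6 had 1.89, -0.41 and 3.78, with a mean of 1.75 ± 2.10 (adjusted p = 0.115, limma). The array 3 value of ILV6 was a 13.7-fold higher signal in treated cells, the highest value of any of the 10 genes. The log2 ratio of ILV6 stood above that of ILV2 on each array, by 0.64, 0.88 and 2.04. The mean difference of ILV2 minus ILV6 was -1.19 ± 0.75 (SD, n = 3; exact two-sided sign-flip permutation p = 0.25, adjusted p = 0.417 over 5 pairs). With 3 arrays that test cannot give a p below 0.25.

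ILV5 encodes acetohydroxyacid reductoisomerase, which also helps to keep mitochondrial DNA stable. It had 1.07, -0.93 and 0.14 on arrays 1, 2 and 3, so that array 3 lay near 0 and only array 1 was past 2-fold higher. Its mean of 0.09 ± 1.00 was close to 0 (adjusted p = 0.889, limma). ILV3 encodes dihydroxyacid dehydratase, an iron-sulfur enzyme. It had 2.12, -2.10 and 2.42, which corresponds to a 4.34-fold and a 5.35-fold higher signal on arrays 1 and 3 and a ratio of 0.233 on array 2. Array 2 was 4.37 below the average of the other arrays, the largest such gap among the 9 genes. The mean of 0.81 ± 2.53 had an adjusted p of 0.503 (limma).

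BAT1 encodes the mitochondrial branched-chain transaminase, which makes the final step of synthesis and is known to be highest in growing cells. BAT1 had 1.52, -2.12 and 2.14 on arrays 1, 2 and 3, with a mean of 0.51 ± 2.30 (adjusted p = 0.663, limma). BAT2, its cytosolic counterpart, which acts mainly in breakdown, had -0.64, 1.07 and -0.37, with a mean of 0.02 ± 0.92 (adjusted p = 0.975, limma). The paired genes thus had opposite signs on every array, the ratio of BAT1 being above that of BAT2 on arrays 1 and 3 and below it on array 2. BAT1 minus BAT2 was 2.16, -3.20 and 2.50, and the mean of 0.49 ± 3.20 had an exact sign-flip permutation p of 1 (adjusted p = 1 over 5 pairs).

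LEU4 encodes the main isopropylmalate synthase, which commits carbon to leucine and is inhibited by it. It had 3.27, -0.10 and 3.67 on arrays 1, 2 and 3, that is, 9.62-fold and 12.7-fold higher signals on arrays 1 and 3 and a ratio of 0.932 on array 2. Its mean of 2.28 ± 2.07 was the highest of the 9 genes, yet the spread between arrays left it short of the threshold (adjusted p = 0.0568, limma). LEU9, the second synthase gene, had 1.52, -1.75 and 2.52, with a mean of 0.76 ± 2.23 (adjusted p = 0.483, limma). The log2 ratio of LEU4 stood above that of LEU9 by 1.75, 1.65 and 1.15, a steady gap of 1.52 ± 0.32 on arrays that otherwise disagreed (exact sign-flip permutation p = 0.25, the smallest possible; adjusted p = 0.417 over 5 pairs). LEU4 and LEU9 are paralogs, and how far their spots share signal was not tested.

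LEU1 and LEU2 encode the consecutive cytosolic steps of leucine synthesis and parted on every array. LEU1, an iron-sulfur isomerase, had -0.21, -1.95 and 0.22 on arrays 1, 2 and 3, with a mean of -0.65 ± 1.15 (adjusted p = 0.322, limma). It was the only one of the 9 genes with a mean below 0 and the only one below 0 on array 1. LEU2, isopropylmalate dehydrogenase, had 2.39, 1.32 and 2.43, with a mean of 2.05 ± 0.63 (SE 0.32; adjusted p = 0.0138, limma), a 4.13-fold higher signal in treated cells. Its 3 arrays all lay above 2-fold, as they did for 3.78% of the genes tested, and its SD was the smallest of the 9. The log2 ratio of LEU2 exceeded that of LEU1 by 2.60, 3.27 and 2.21, a mean difference of 2.69 ± 0.53 (exact sign-flip permutation p = 0.25, the smallest possible; adjusted p = 0.417 over 5 pairs). The call of LEU2 was lost without array 1 (adjusted p = 0.168) and without array 3 (adjusted p = 0.12, limma), fits in which 0 genes of the whole table passed, and its mean was then 1.87 and 1.85.

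**Figure D2:**
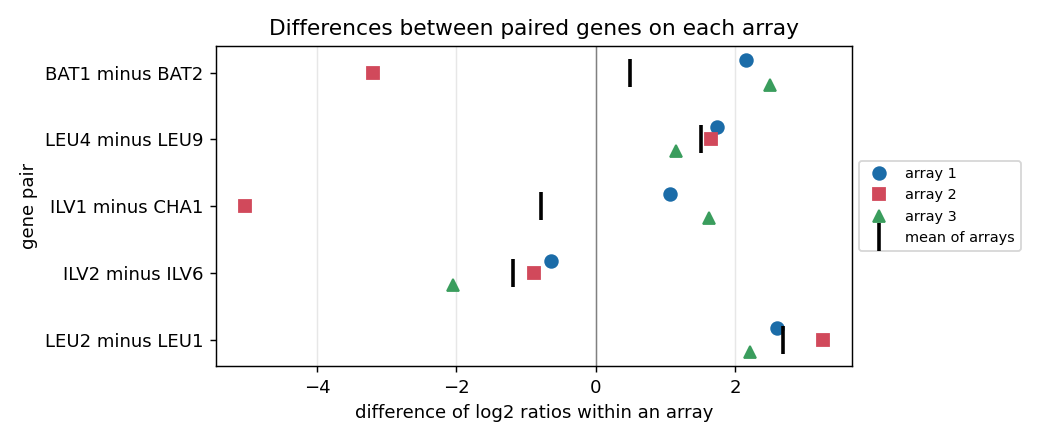
Difference of log2 ratios between the genes of each pair within an array (horizontal axis) for 5 pairs (vertical axis), with a symbol for each array and a bar for the mean. The LEU4 minus LEU9, ILV2 minus ILV6 and LEU2 minus LEU1 differences keep 1 sign on all 3 arrays, and array 2 lies across 0 from arrays 1 and 3 for BAT1 minus BAT2 and ILV1 minus CHA1.

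Arrays 1 and 3 ranked the 9 genes alike and array 2 shifted them down. As a description across genes, which are not independent replicates and share spot and dye effects between arrays, the 9 ratios of arrays 1 and 3 correlated at r = 0.836 (Pearson) and rho = 0.85 (Spearman). The corresponding values were 0.571 and 0.483 for arrays 1 and 2, and 0.425 and 0.433 for arrays 2 and 3. The median shift of array 2 against the average of arrays 1 and 3 was -2.78 over the 9 genes, with a range of -4.37 to -1.09, while it was -0.03 over all genes tested. Of the 9 genes 7 were above 0 on arrays 1 and 3 and below 0 on array 2, a pattern of 9.87% of the genes tested. For ILV2, ILV3 and BAT1 each of these values was past 2-fold, which held for 19 of the 3039 genes (0.625%).

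**Figure D3:**
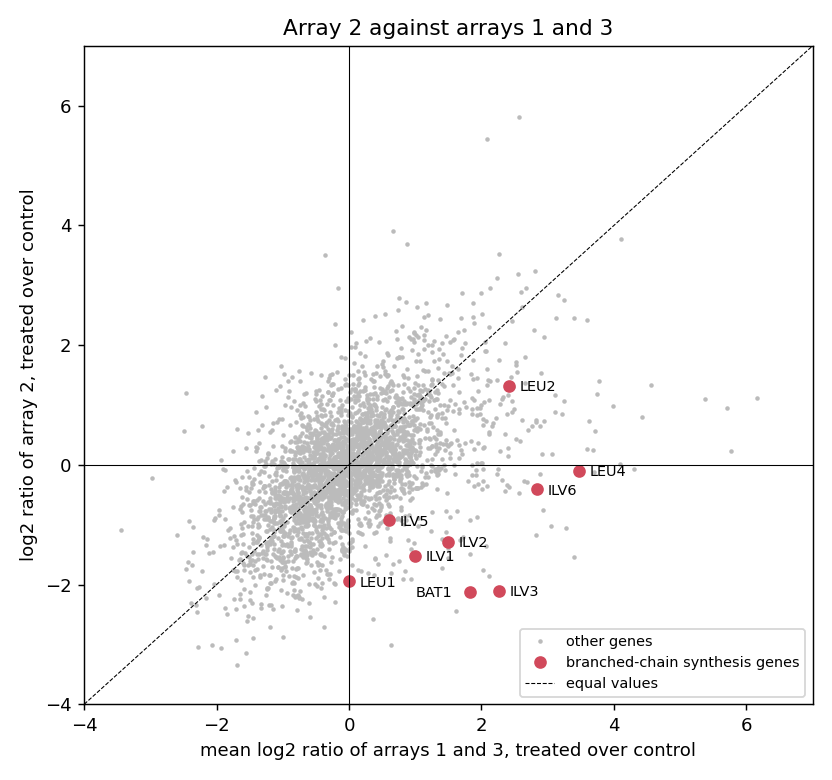
Log2 ratio on array 2 (vertical axis) against the mean log2 ratio of arrays 1 and 3 (horizontal axis) for the 3039 genes tested, with the 9 branched-chain synthesis genes named. All 9 lie below the dashed line of equal values, and all but LEU2 are below 0 on array 2, LEU1 with a mean of 0.0036 on arrays 1 and 3.

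Without array 2, 7 of the 9 genes were called higher and 0 lower, where 12.3% of all genes were called higher and 12% lower (limma, 2 arrays). LEU4 then stood at 3.47 (adjusted p = 0.000351), ILV6 at 2.84 (0.00348), LEU2 at 2.41 (0.00155), ILV3 at 2.27 (0.00198), BAT1 at 1.83 (0.00589), ILV2 at 1.49 (0.0123) and ILV1 at 0.99 (0.0458). ILV5 at 0.60 and LEU1 at 0.0036 did not pass. Array 2 was left out with its values known, so these calls describe arrays 1 and 3 only. With 2 arrays a gene's own spread is poorly known, so these p values rest heavily on the variance that limma pools over genes. ILV6, for example, had 1.89 on array 1 and 3.78 on array 3.

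The genes around the pathway showed a mixed picture. Of further genes reported as Leu3 targets, BAP2, a permease for leucine, isoleucine and valine, rose to 1.83 ± 1.27 (adjusted p = 0.0366, limma). Its values were 2.14, 0.43 and 2.90 on arrays 1, 2 and 3. GDH1, the glutamate dehydrogenase that assimilates ammonia, fell to -1.53 ± 0.16 (adjusted p = 0.016, limma) and was evenly low, with -1.72, -1.47 and -1.42. OAC1, a mitochondrial carrier that exports isopropylmalate, had 0.38, 0.29 and 2.24 and did not pass (adjusted p = 0.144, limma). MAE1, the mitochondrial malic enzyme, had 0.52, -1.65 and 0.80, which is the sign pattern of most of the synthesis genes (adjusted p = 0.889, limma). Of 6 permease genes for branched-chain amino acids, BAP2 and the general permease GAP1 (1.77 ± 0.60, adjusted p = 0.017, limma) were higher, TAT1 was lower at -1.52 ± 0.33 (adjusted p = 0.0174, limma) and 3 did not pass. AGP1, the broad amino acid permease, was among these at 2.00 ± 1.68 (adjusted p = 0.0506, limma). For comparison, 8.36% of all genes tested were called higher and 9.64% lower. As with LEU2, the calls of BAP2, GDH1, GAP1 and TAT1 were lost without array 1 or without array 3.

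Of 5 genes that lead to threonine and CHA1, a catabolic deaminase of serine and threonine, 0 of 6 were called in either direction in limma (1, HOM2, at an unadjusted p below 0.05). Among all genes tested, 8.36% were called higher and 9.64% lower. HOM3, aspartate kinase, had 2.65, -1.02 and 3.45 on arrays 1, 2 and 3, and HOM2, the next enzyme, had 2.73, -0.29 and 2.63. Their adjusted p values were 0.156 and 0.0855 (limma). HOM6, of the same route, had -0.85, 0.14 and 0.43, so its lowest array was array 1. THR1 and THR4 turn homoserine into threonine. THR1 had 0.38, -1.78 and 1.31 on arrays 1, 2 and 3, with a mean of -0.03 ± 1.58. THR4 had 0.03, -0.78 and 0.55, with a mean of -0.07 ± 0.67. CHA1, whose enzyme makes the same product from threonine as Ilv1, ran the other way between arrays, with -0.04, 3.51 and -0.67. ILV1 minus CHA1 was 1.07, -5.03 and 1.63 (mean -0.78 ± 3.69, exact sign-flip permutation p = 1, adjusted p = 1 over 5 pairs). On array 2 the ratio of the catabolic gene thus lay far above that of the synthetic one, and on arrays 1 and 3 below it. Such pair differences compare treated-over-control ratios, not the RNA levels of the genes.

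Other amino acid pathways were set beside this one on the same arrays, with no test of a difference between lists. Of 7 arginine and ornithine genes 5 were higher (2 with a robust variance), and the list medians were 2.87, 0.02 and 3.41 on arrays 1, 2 and 3. Of 9 lysine genes 2 were higher, LYS1 at 2.48 ± 1.92 and LYS5 at 1.05 ± 0.38, with list medians of 1.54, 0.10 and 1.72. Of 5 histidine genes HIS2 was higher at 1.28 ± 0.80 (adjusted p = 0.0457, and 0.0502 among genes on at least 2 arrays, limma), with list medians of 1.88, -1.21 and 1.67, and of 12 aromatic genes 0 passed in limma (4 at an unadjusted p below 0.05), with list medians of 1.49, -0.64 and 1.79. Each of these 4 lists had 0 genes lower. Among all genes tested, 8.36% were called higher and 9.64% lower. Array 2 was the lowest array for every tested gene of these 4 lists, 33 genes in all, against 37.6% of all genes tested. The same held for the 9 branched-chain synthesis genes and for the 6 branched-chain permease genes. The margin was small for TYR1, with -0.38, -0.53 and -0.49 on arrays 1, 2 and 3. HIS6, ARO7 and PHA2 had no value on array 1 and were not among the tested genes. HIS6 had -0.93 and -1.71 on arrays 2 and 3, and ARO7 had -0.48 and -0.59, so array 3 was the lower array for these genes. PHA2 had 0.13 and 0.56. The array 2 median was below -1 for the branched-chain and histidine lists and near 0 for the arginine and lysine lists.

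GCN4, the activator of these pathways, whose amount is set mainly at translation, had 0.45, 0.17 and 0.88 on arrays 1, 2 and 3, with a mean of 0.50 ± 0.35 (adjusted p = 0.24, limma). Of 8 tested genes for Gcn4 and its translational control, 2 were lower and 0 higher, where 9.64% and 8.36% of all genes tested were. The lower genes were GCD6, a subunit of the exchange factor eIF2B, at -2.12 ± 0.82 (adjusted p = 0.0159, limma), and SUI2, the alpha subunit of eIF2, at -1.92 ± 0.77 (adjusted p = 0.0174, limma). GCD6 had -2.56, -1.17 and -2.64 on arrays 1, 2 and 3, and SUI2 had -2.23, -1.04 and -2.48, so array 2 was the least lowered array for both. The list medians were -0.80, -0.80 and -0.93.

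**Figure D4:**
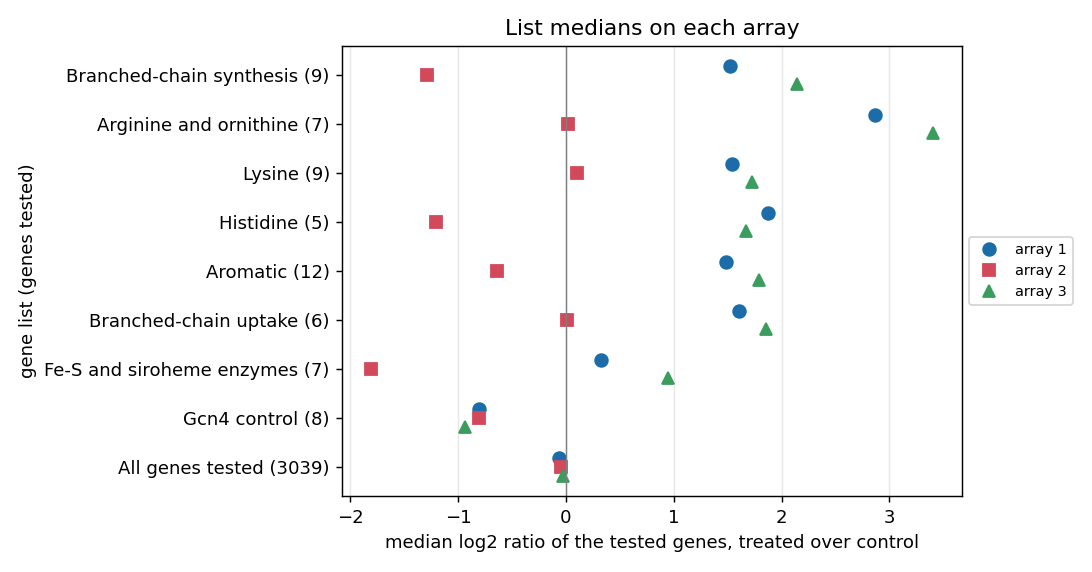
Median log2 ratio of treated over control (horizontal axis) for each gene list (vertical axis, with the number of genes tested), with a symbol for each array. The amino acid synthesis lists lie at or above 1.49 on arrays 1 and 3 and at or below 0.10 on array 2, while the medians of the Gcn4 control list and of all genes tested lie within a narrow range.

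LEU1 and ILV3 need iron-sulfur clusters, so other iron-sulfur or siroheme enzymes were read on the same arrays. The 8 such genes include MET10, a partner subunit of the siroheme enzyme. Of these 8, 6 were at least 2-fold lower on array 2, where 11.4% of named genes were. On array 1 this held for 0 of 7 with a value, where 15% of named genes were. On array 3 it held for 1 of 8, where 13.7% were. GLT1, glutamate synthase, had 0.32, -3.01 and 0.95 on arrays 1, 2 and 3, and LYS4, homoaconitase, had 1.54, -2.44 and 1.69. RIP1, the iron-sulfur protein of respiratory complex III, had -0.62, -1.82 and 0.06. ACO1, mitochondrial aconitase, lay near 0 with -0.06, 0.12 and 0.54. Over all 3 arrays 1 of the 7 tested genes was called higher, MET10 at 2.14 ± 1.48 (adjusted p = 0.0329, limma), and 0 lower. The shares of all genes tested were 8.36% higher and 9.64% lower. BIO2 had no value on array 1 and was not in that test. It had -1.52 on array 2 and -2.19 on array 3, so array 3 was its lower array. In the fit of genes on at least 2 arrays BIO2 was called lower (mean -1.86, adjusted p = 0.0244, limma), where 5.83% of genes were. ILV1, ILV2 and BAT1, which were not read as cluster enzymes, were also at least 2-fold lower on array 2, with -1.52, -1.29 and -2.12. Whether the need for such clusters had a part in the array 2 values of LEU1 and ILV3 was not tested.

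The genes with patterns most like the branched-chain medians were ranked by the root mean square difference of their log2 ratios over the 3 arrays. The nearest 8 were CCP1, a mitochondrial cytochrome c peroxidase, at 0.194, PNS1 at 0.208, LEU9 at 0.345, ASN1, asparagine synthetase, at 0.353, ARO1 of aromatic synthesis at 0.355, TRP4 of tryptophan synthesis at 0.362, LYS9 of lysine synthesis at 0.385 and HIS7 of histidine synthesis at 0.388. LEU2 had other neighbours in pattern: YCT1, a cysteine transporter, at 0.0483, PKP2, a mitochondrial protein kinase, at 0.125, ATG33, a gene of mitochondrial autophagy, at 0.164, AGX1, an alanine-glyoxylate aminotransferase, at 0.199 and UBC5, a ubiquitin-conjugating enzyme, at 0.205.

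Most measured genes next to the 10 on the chromosome had means near 0. Of the 20 adjacent protein-coding genes 12 had a value on all 3 arrays, and their medians were -0.19, 0.23 and -0.10 on arrays 1, 2 and 3. Of these 12, ATG33, next to ILV5, was called higher at 1.91 ± 0.70 (adjusted p = 0.0169, limma) and 0 were called lower. Among all genes tested, 8.36% were called higher and 9.64% lower. SPG4, next to ILV2, had 2.71 and 1.15 on arrays 2 and 3 and no value on array 1, and was called higher in the fit of genes on at least 2 arrays (mean 1.93, adjusted p = 0.0384, limma). NFS1, next to LEU2, stood at 0.24 with an adjusted p of 0.577, and SGF29 and STP22, on either side of ILV6, stood at -0.16 and 0.04 with adjusted p of 0.69 and 0.928 (limma).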

How the data were processed

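The deposited values are log2 ratios (log base as read here) of 6272 spots on 3 arrays, normalized by the authors with LOWESS on spots of flag value 0, per the labels' description. The sources used here do not give the background correction, scanner or image software. Of the spots 5308 had 1 gene symbol in the platform annotation, 0 had several and 964 had none; 5304 were updated through the RefSeq table of assembly R64. A gene's spots were averaged, and each of the 10 genes had 1 spot. For the 3039 genes measured on every array, limma 3.58.1 (R 4.3.3) compared the mean ratio with 0 (eBayes, two-sided, Benjamini-Hochberg over all of them, threshold 0.05), a test also run on simulated data. Residual degrees of freedom were 2 and the prior added 5.31. The table holds no counts, and the number of arrays limits the precision. Exact sign-flip tests over the 3 arrays covered 5 gene pairs. Genes were named by a written rule: the 10 genes, the genes of the pathway's neighbouring lists, the 2 highest and 2 lowest of other lists, and the nearest 8 and 5 in pattern. Many genes that the rule allows were not named, among them HMF1, BAP3, GNP1, PDC1, ARG1, ARG4 and MET5. LYS5, HIS2, HIS6, ARO7, PHA2, BIO2, ACO1, ARO10, SFA1 and the adjacent genes named were outside the rule and were chosen after their values were seen. LYS4 was within the rule for the lysine list but outside it for the iron-sulfur list, under which it was named. Genes and lists were chosen with earlier results of these data known. Alternatives were centring, scaling, variance models, array weights, filters, thresholds, separate spots and leaving out each array.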

Additional observations from a re-analysis of the deposited data

How the results depend on the processing

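The call of LEU2 was kept with centred arrays, scaled arrays, a robust variance, array weights, genes on at least 2 arrays and separate spots. It was lost with an unmoderated variance (adjusted p = 0.215), a test against a 1.5-fold change (0.0594) and a threshold of 0.01. The number of the 10 genes called higher was 1, and it was 0 under these last 3 settings and 3 (LEU2, LEU4 and ILV6) with array weights. Those weights were estimated from the same data. They were 1.66, 0.609 and 0.99 for arrays 1, 2 and 3, so array 2 counted least. Over all genes, 254 higher and 293 lower calls became 0 and 0 with an unmoderated variance (261 and 374 at an unadjusted p below 0.05), 23 and 13 at the stricter threshold and 29 and 16 against 1.5-fold. Leaving out each array in turn gave 0 to 7 of the 10 genes higher, 0 to 373 genes higher and 0 to 366 lower over all genes. Without array 1 or array 3, where 0 genes passed in limma, 635 and 715 genes were at an unadjusted p below 0.05. The same omissions moved the means of LEU1 over -1.08 to 0.0036, ILV1 over -0.28 to 0.99, ILV2 over -0.0185 to 1.49, ILV3 over 0.0070 to 2.27, ILV5 over -0.40 to 0.60, ILV6 over 0.74 to 2.84, BAT1 over -0.30 to 1.83, LEU4 over 1.58 to 3.47 and LEU2 over 1.85 to 2.41. They moved the median of the 9 genes over 0.0070 to 1.83, BAT1 minus BAT2 over -0.52 to 2.33 and ILV1 minus CHA1 over -1.98 to 1.35, and the other 3 pair differences kept their sign. Of 81 member values under the settings that kept all arrays, 76 kept direction and side of the threshold, 3 lost the call, 2 gained it and 0 changed sign. Much of this count was fixed in advance. Among these settings only centring, scaling and array weights could change the mean of a member, so elsewhere no sign could change. LEU2 alone was called in the main fit, so only its call could be lost. Reading the ratio as control over treated turns every sign and was not recomputed. Each ratio already sets a treated culture against the control on its array, so with a single group there was no further replicate block to fit.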

Other observations

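Genes that break down branched-chain amino acids through the fusel alcohol route had mixed values. Of 6 tested, ADH5, an alcohol dehydrogenase, was higher at 1.99 ± 1.46 (adjusted p = 0.0382, limma). Its array values were 3.68, 1.16 and 1.13. PDC5, a minor pyruvate decarboxylase, was lower at -1.35 ± 0.66 (adjusted p = 0.033, limma). The shares of all genes tested were 8.36% higher and 9.64% lower. ARO10, a decarboxylase of this route, had 0.20, -1.50 and 0.90 (adjusted p = 0.86, limma), and SFA1, another alcohol dehydrogenase, stood at -0.18 ± 0.43. MMF1, which encodes a mitochondrial protein that yeast needs for isoleucine synthesis, had 0.36, 2.05 and 0.56 (adjusted p = 0.112, limma). Its ratio was thus highest on array 2, where those of the tested synthesis genes were lowest.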
